A study of Mus musculus with 6 samples.

Results

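The RNA levels of 10 genes of the bone morphogenetic protein (BMP) and transforming growth factor beta (TGF-beta) pathways were compared between control HT22 cells and HT22 cells exposed to aluminum. The 10 genes, taken by symbol from the 21878 symbols of the deposited expression table, were Id1, Id2, Id3, Id4, Smad6, Smad7, Skil, Bmp4, Bmpr1a and Tgfbr2. HT22 is an immortalized line from mouse hippocampus. The control group (3 libraries, no aluminum) and the Al group (3 libraries, 120 µM aluminum maltolate) were harvested after 24 h, and the libraries were the input libraries of an m6A immunoprecipitation experiment, made from the fragmented RNA before enrichment. Aluminum maltolate is a soluble complex of aluminum with the chelator maltol. The labels mark the treated libraries with the letter M and give only a range of doses. The dose and time are those of the study's methods, which list a medium-only control and a maltol control without saying which was sequenced. All libraries come from 1 cell line, and the study describes the 3 libraries of a group as biological replicates without saying whether they were separate cultures, so that the P values below measure the spread between these libraries.

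In these pathways a secreted ligand such as BMP4 brings type I and type II receptor kinases together at the cell surface, and the type I receptor then phosphorylates the signal-carrying SMAD proteins. BMP receptors act through SMAD1, SMAD5 and SMAD9, and TGF-beta and activin receptors act mainly through SMAD2 and SMAD3. These join SMAD4, enter the nucleus and switch target genes on or off. The ID genes are textbook targets of BMP signalling: their proteins have a helix-loop-helix but no DNA-binding region, pair with E proteins such as the product of Tcf3, and so keep basic helix-loop-helix factors off DNA. In the nervous system they are known for holding progenitor cells back from neuronal differentiation. Smad6, Smad7 and Skil are also induced by the pathways and act back on them: SMAD6 inhibits mainly BMP receptors, SMAD7 inhibits both branches, and the product of Skil, SnoN, represses transcription by SMADs.

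The 6 libraries held between 20973691 and 44220124 reads counted on genes, recovered from the steps of the deposited FPKM values (reads per length of transcript and per depth of the library), and every Al library was shallower than every control library. The 50 genes with the highest FPKM held 18.7% ± 0.70 of all FPKM in control libraries, against 31.5% ± 1.34 in Al libraries (SD, n = 3 each). Levels below are therefore FPKM divided by a size factor for each library ("scaled FPKM"). Replicate 3 of each group stood furthest from the other replicates: the chi-square between the reads of Al replicates 1 and 2 was 17.8 per gene, against 68.1 and 47.7 between replicate 3 and the others. No pair of replicates agreed within sampling noise. Of 12 neuronal markers, 3 (Tubb3, Dlg4 and Syn1) had a mean FPKM of at least 1, Snap25, Nefm and Neurod1 were at 0 in all libraries, and Map2 and Rbfox3 were near 0. The summed scaled FPKM of the neuronal markers was 22.5 to 24.2 in the control libraries, against 14.7 to 16.7 in the Al libraries, with log2 fold changes of -0.19 for Tubb3 (adjusted P = 0.404) and -0.52 for Dlg4 (adjusted P = 0.0122), which were not called, and -1.08 for Syn1 (adjusted P = 0.000559), which was. Of 7 fibroblast markers 6 reached a mean FPKM of 1, led by the collagen genes Col1a1, Col1a2 and Col3a1, with scaled sums of 2094 to 3380 in the control group, against 3585 to 5134 in the Al group. These sums rest on the collagens; Pdgfra, Dcn, Lum and Postn fell by 1.22, 1.64, 2.28 and 1.51 on the log2 scale (limma, adjusted P = 0.00709, 0.0105, 0.0123 and 0.0119). Oligodendrocyte and endothelial markers had mean FPKM under 1, with scaled sums of 0.164 to 0.260 and 0.0379 to 0.156 in control libraries and 0.227 to 0.836 and 0.396 to 0.474 in Al libraries; the endothelial marker Pecam1 was called higher (log2 fold change 1.26, adjusted P = 0.0273). Slc1a3 was the only astrocyte marker over 1 and Tmem119 the only microglial one. In the limma fit Slc1a3 was called lower (log2 fold change -2.96, adjusted P = 2.36e-05), while the astrocyte marker Aldh1l1 was not called (0.09, adjusted P = 0.884). Tmem119 was not called (0.25, adjusted P = 0.611). At lower levels, the microglial Cx3cr1 was called higher (2.14, adjusted P = 0.00214) and the neuronal Camk2a lower (-1.51, adjusted P = 0.0109). The astrocyte sum was 11.9 to 19.5 scaled FPKM in control libraries and 1.92 to 2.82 in Al libraries, with Aqp4 at 0 throughout, and the microglial sum was 33.5 to 41.4 and 23.8 to 90.6. The part of these differences in the results below was not tested, and in such bulk RNA fewer cells of a kind and less RNA per cell cannot be told apart.

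A gene was called when its P in a limma fit over all tested genes was under 0.05 and its log2 fold change, Al over control, was over 0.58 in size. Of the 10 genes, 9 had the mean FPKM of at least 0.1 needed to be tested, and Bmp4 did not. Id1, Id2 and Smad7 were called higher in the Al group (3 of 9) and Smad6 was called lower (1 of 9). Id3, Id4, Skil, Bmpr1a and Tgfbr2 were not called. Over all 12889 tested genes 26.2% were called higher, 24.4% lower and 50.6% in either direction, so that 4 calls among 9 genes were near the share in the whole table. The libraries of the 2 groups did not overlap for Id1 and Smad7, with the Al group above, nor for Smad6, with the Al group below; over all genes 35.1% did not overlap with the Al group above and 33.1% with it below. The median log2 fold change was 0.34 over the 9 genes and 0.03 over all tested genes. For a single gene, the smallest P that an exact two-sided permutation test of 3 against 3 libraries can give is 0.1.

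**Figure D1:**
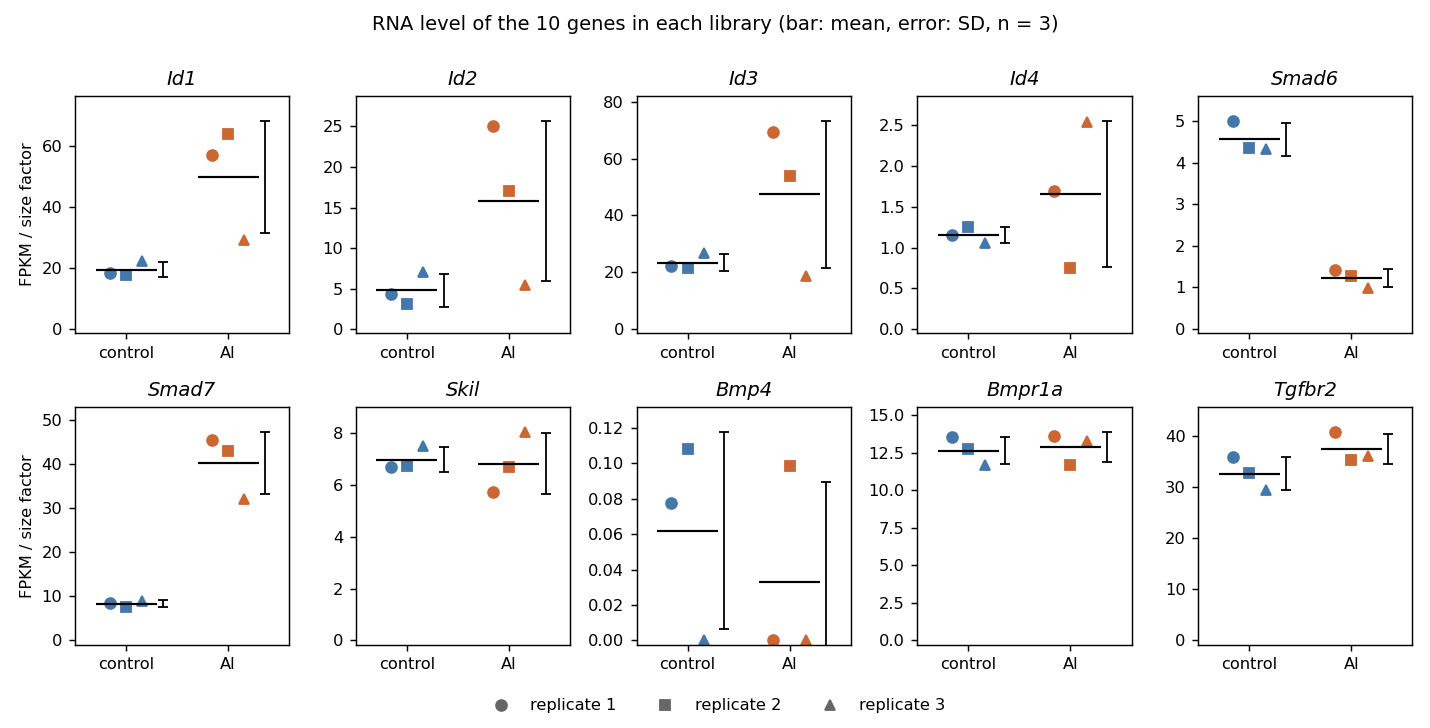
Scaled FPKM (vertical axis of each panel, linear and including 0) of the 10 genes in the 3 control and 3 Al libraries; each symbol is 1 library with its shape giving the replicate number, the bar is the mean and the error bar the SD. The Al libraries lie above the control libraries for Id1 and Smad7 and below them for Smad6, and the Al libraries of Id1, Id2, Id3 and Id4 are spread widely, while those of Bmpr1a stay between 11.7 and 13.6.

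RefSeq promoter windows, from 250 bases before to 50 bases after the start of transcription on GRCm38.p6, were matched by symbol for 7 of the 10 genes; Id1, Smad7 and Skil had no entry. The windows are shown because the pathway's transcription factors read short DNA words of this kind. The words searched on both strands were the palindrome GTCTAGAC, which joins a pair of SMAD boxes, the GC-rich palindrome GGCGCC, which SMAD1 and SMAD5 can bind, and the SMAD box CAGAC, which reads GTCTG on the other strand. GTCTAGAC was in 0.213% of 32851 mouse promoter windows and occurred in the Smad6 window, where its first base lay 4 bases before the start. GGCGCC was in 11.9% of the windows and occurred in those of Id2 (231 bases before the start), Id4 (148 bases) and Bmpr1a (198 bases). CAGAC was in 49.6% of the windows and occurred in those of Id3 (167 and 68 bases before the start) and Tgfbr2 (160 bases), and Bmp4 held none of the words. These matches describe the letters only. The windows of Id2, Id3 and Bmpr1a lie inside the gene bounds given below, which come from another annotation (GENCODE). Distances therefore hold for the RefSeq start only. The windows of Smad6 (chr9:64022010-64022309, minus strand), Id2 (chr12:25096043-25096342, minus strand) and Id3 (chr4:136143572-136143871, plus strand) follow 5′ to 3′, with the matched words in capitals, for the gene that was called lower, an ID gene that was called higher and one that was not called:
Smad6: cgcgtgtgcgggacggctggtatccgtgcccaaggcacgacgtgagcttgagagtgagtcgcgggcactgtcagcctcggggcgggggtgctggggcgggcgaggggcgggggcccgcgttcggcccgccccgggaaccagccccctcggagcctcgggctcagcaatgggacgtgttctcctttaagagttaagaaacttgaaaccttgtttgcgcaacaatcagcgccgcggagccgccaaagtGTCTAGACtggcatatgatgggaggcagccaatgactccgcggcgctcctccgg
Id2: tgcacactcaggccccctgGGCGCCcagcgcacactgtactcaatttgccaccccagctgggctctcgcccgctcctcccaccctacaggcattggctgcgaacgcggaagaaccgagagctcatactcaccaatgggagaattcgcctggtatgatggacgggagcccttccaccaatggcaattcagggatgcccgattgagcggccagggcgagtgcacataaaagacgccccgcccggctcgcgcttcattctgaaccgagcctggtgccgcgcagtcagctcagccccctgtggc
Id3: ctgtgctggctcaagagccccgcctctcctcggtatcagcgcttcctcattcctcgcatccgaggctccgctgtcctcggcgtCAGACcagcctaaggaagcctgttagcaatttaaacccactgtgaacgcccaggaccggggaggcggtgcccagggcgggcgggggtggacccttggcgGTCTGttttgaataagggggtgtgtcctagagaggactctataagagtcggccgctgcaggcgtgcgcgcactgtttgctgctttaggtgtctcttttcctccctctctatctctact

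Bmp4, the ligand among the 10 genes, on chr14:46383520-46390669 (GRCm38), had 8, 13 and 0 reads in control replicates 1, 2 and 3 and 0, 4 and 0 reads in Al replicates 1, 2 and 3. The scaled FPKM was 0.0775, 0.108 and 0 in the control group, against 0, 0.0982 and 0 in the Al group. A count of 0 allows up to 3 reads, which stand for 0.0250 to 0.0736 scaled FPKM in these libraries, so that no difference in Bmp4 was detectable at this depth. Bmp4 also shares exon bases with Gm15217 on the opposite strand, and whether the counting used strand is not given in the sources used here.

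Bmpr1a, a type I BMP receptor on chr14:34410734-34503341, was read at 13.5, 12.7 and 11.7 scaled FPKM in the control libraries, against 13.6, 11.7 and 13.3 in the Al libraries. The groups overlapped, and the log2 fold change was 0.03 with a 95% interval of -0.22 to 0.27 (adjusted P = 0.848). Its reads may include those of Gm17110, an antisense transcript that shares exon bases with it. Tgfbr2, the type II TGF-beta receptor on chr9:116084293-116175360, had the highest level of the 10 genes in the control group. It stood at 35.9, 32.8 and 29.4 in the control libraries, against 40.9, 35.4 and 36.2 in the Al libraries. Only control replicate 1 reached into the range of the Al group, and the log2 fold change was 0.20 with an interval of -0.05 to 0.45 (adjusted P = 0.145). The direction for both receptors depended on the scaling: without size factors the log2 fold changes were -0.46 for Bmpr1a and -0.29 for Tgfbr2, when the median of all tested genes was -0.43. With equal sums both were called lower, at -0.76 (adjusted P = 0.00250) and -0.59 (adjusted P = 0.00403), as were 53.1% of all tested genes. Within a library, which needs no scaling, the FPKM ratio of Tgfbr2 to Bmpr1a was 2.58 ± 0.0685 in the control group, against 2.91 ± 0.164 in the Al group (SD, n = 3 each).

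Of the intracellular feedback inhibitors, Smad7 rose and Smad6 fell. Smad7, on chr18:75367529-75395935, was read at 8.55, 7.50 and 8.89 scaled FPKM in the control libraries, against 45.5, 42.9 and 32.1 in the Al libraries. Every Al library was above every control library, with means of 8.31 ± 0.726 and 40.2 ± 7.10 (SD, n = 3 each), a 4.83-fold difference. This gave a log2 fold change of 2.25 (SE 0.14, 95% interval 1.92 to 2.58, adjusted P = 1.11e-05). The reads behind these values were 1713 to 2066 in a control library and 2809 to 4325 in an Al library, so that the raw counts were higher in the Al group although its libraries were shallower.

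Smad6, on chr9:63953076-64022059, was read at 5.01, 4.34 and 4.32 scaled FPKM in the control libraries, against 1.42, 1.27 and 0.999 in the Al libraries. Here every Al library was below every control library. The means were 4.55 ± 0.392 and 1.23 ± 0.213 (SD, n = 3 each), 3.70-fold lower in the Al group, from 677 to 683 reads in a control library and 59 to 91 in an Al library. This gave a log2 fold change of -1.82 (SE 0.18, interval -2.22 to -1.41, adjusted P = 5.42e-05). GTCTAGAC was in the Smad6 promoter window, but Smad7 had no window, so the word cannot be compared between Smad6 and Smad7. Any part of the word in the level of Smad6 was not tested.

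The pair was also set against each other within each library, a ratio chosen after its values were seen and given as a description. The FPKM of Smad7 was 1.71, 1.73 and 2.06 times that of Smad6 in control replicates 1, 2 and 3, and 32.1, 33.7 and 32.1 times in Al replicates 1, 2 and 3. This ratio varied little within either group, at 1.83 ± 0.198 and 32.6 ± 0.891 (SD, n = 3 each). Both genes kept their direction and their call under all 18 alternative settings, with log2 fold changes of 1.47 to 2.41 for Smad7 and -2.63 to -1.32 for Smad6.

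**Figure D2:**
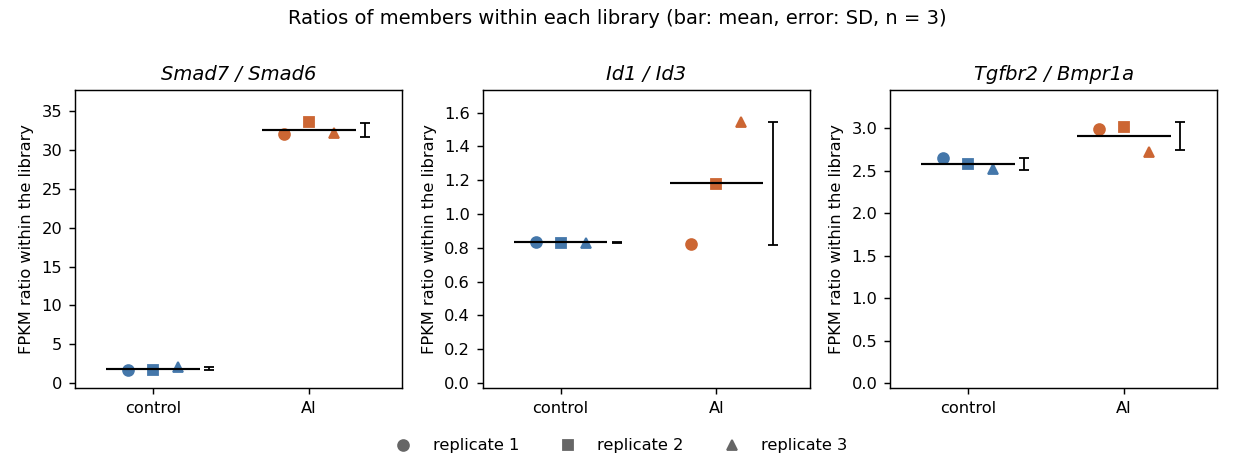
FPKM ratio of 2 genes within each library (vertical axis, linear and including 0) for Smad7 to Smad6, Id1 to Id3 and Tgfbr2 to Bmpr1a; symbols are libraries, bars are means and error bars SD (n = 3 each). Smad7 to Smad6 is between 1.71 and 2.06 in the control libraries, against between 32.1 and 33.7 in the Al libraries, while Id1 to Id3 is 0.830 to 0.835 in the control libraries, against ranges from 0.820 to 1.55 in the Al libraries.

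Skil, on chr3:31095058-31122577, was not called. It stood at 6.68, 6.74 and 7.52 scaled FPKM in the control libraries, against 5.73, 6.69 and 8.05 in the Al libraries, so that the Al group spanned the whole control range. The log2 fold change was -0.04 (SE 0.14, interval -0.37 to 0.29, adjusted P = 0.802). Both its call and its direction depended on the scaling, at -0.53 with FPKM as deposited (adjusted P = 0.0296), -0.83 with equal sums (adjusted P = 0.00691, called lower) and 0.15 with quantile normalization (adjusted P = 0.351).

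Among the ID genes, Id1 and Id2 rose, and Id3 and Id4 did not pass the test. In the control group their levels per length were ordered Id3 (23.4 ± 2.92 scaled FPKM), Id1 (19.5 ± 2.41), Id2 (4.8 ± 2.03) and Id4 (1.15 ± 0.0960; SD, n = 3 each). The libraries of Id3 and Id1 overlapped in that order, while those of Id2 and of Id4 lay apart from their neighbours. In the Al group Id1 (49.95 ± 18.3) and Id3 (47.4 ± 25.9) overlapped, as did Id3 and Id2 (15.8 ± 9.88), and Id4 (1.66 ± 0.898) lay below the others.

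Id1, on chr2:152736251-152737410, was read at 18.4, 17.8 and 22.2 scaled FPKM in the control libraries, against 57.0, 63.7 and 29.2 in the Al libraries. The groups did not overlap, but Al replicate 3 was much nearer to the control group than the other two. The means differed 2.57-fold, with a log2 fold change of 1.28 (SE 0.26, interval 0.69 to 1.88, adjusted P = 0.00272), and the call was lost only when libraries were scaled to equal sums (0.50).

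Id2, on chr12:25093799-25097140, was read at 4.31, 3.06 and 7.03 scaled FPKM in the control libraries, against 25.1, 17.0 and 5.43 in the Al libraries. Al replicate 3 lay below control replicate 3, so the groups overlapped, and this gene had both the largest difference of means among the ID genes (3.30-fold) and the widest interval. The log2 fold change was 1.53 (SE 0.51, interval 0.36 to 2.70, adjusted P = 0.0286). The call was lost without control replicate 2 (log2 fold change 1.24, adjusted P = 0.101), without Al replicate 1 (1.08, adjusted P = 0.0866) and without Al replicate 2 (1.36, adjusted P = 0.101), and when libraries were scaled to equal sums (0.76, adjusted P = 0.128). Calls used the unadjusted P of the limma fit. The call was kept, but with an adjusted P over 0.05, with FPKM as deposited (0.0663) and without control replicate 1 (0.0714). The same held without the filter on low values (0.0729) and without the eBayes trend (0.0652). Id2 has a processed pseudogene copy, Gm6175, alike in at least 90% of at least 150 bases, and how reads shared with it were counted is not given in the sources used here, so its level is uncertain.

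Id3, on chr4:136143497-136145755, was read at 22.0, 21.4 and 26.8 scaled FPKM in the control libraries, against 69.4, 54.0 and 18.9 in the Al libraries. Al replicates 1 and 2 were above every control library and Al replicate 3 was below them. The log2 fold change was 0.83 (SE 0.41, interval -0.10 to 1.75, adjusted P = 0.106), and the gene was not called. Without Al replicate 3 it was 1.40 (adjusted P = 6.51e-05) and the gene was called.

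Id4, on chr13:48261228-48266026, had the fewest reads of the ID genes, 86 to 109 in a control library and 22 to 83 in an Al library. It stood at 1.15, 1.25 and 1.06 scaled FPKM in the control libraries, against at 1.69, 0.744 and 2.54 in the Al libraries, on both sides of the control range. The log2 fold change was 0.34 (SE 0.37, interval -0.51 to 1.19, adjusted P = 0.446). Its direction changed with the scaling and with single libraries, at -0.11 without size factors, -0.016 without Al replicate 3 and 0.81 (adjusted P = 0.0227, called) without Al replicate 2. The antisense genes A330033J07Rik and Gm49291 share exon bases with Id4.

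Al replicate 3 had the lowest level of the Al group for Id1, Id2, Id3, Smad6 and Smad7 and the highest for Id4 and Skil, and it was the library furthest from the others over all genes. Without it the log2 fold changes were 1.64 for Id1, 2.18 for Id2, 1.40 for Id3, 2.41 for Smad7 and -1.68 for Smad6. With that library left out, 4 of the 9 tested genes were called higher (Id3 being added) and 1 lower, against 27.2% and 25.5% of all tested genes. Whether the ID genes differed from each other in their response was not tested; the ratio of Id1 to Id3 within a library was 0.835, 0.830 and 0.831 in the control group, against 0.820, 1.18 and 1.55 in Al replicates 1, 2 and 3.

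**Figure D3:**
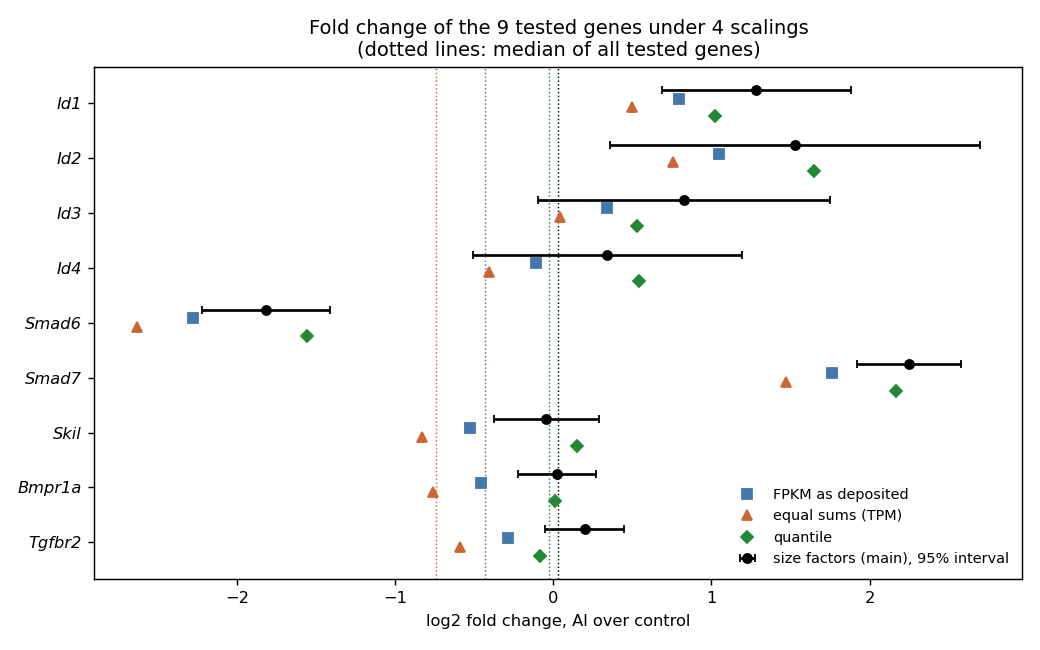
Log2 fold change, Al over control (horizontal axis), of the 9 tested genes in the main analysis with 95% intervals (black) and under 3 other scalings (colored symbols); dotted lines are the medians of all tested genes under each scaling. Smad7 stays at 1.47 or more and Smad6 at -1.56 or less under these scalings, while Bmpr1a and Tgfbr2 move with the median of all genes.

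The other genes of the pathways were counted from lists by role, holding 123 genes of which 75 were tested and 19 were at 0 in all libraries. Of the 75 tested genes 25 were called higher and 18 lower (57.3% in either direction, against 50.6% of all genes), with a median log2 fold change of 0.07.

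The ligand lists moved in both directions. Of 4 tested BMP and GDF ligands, all at a mean FPKM below 1, 1 was called higher and 2 lower, 1 of the latter (Gdf5) not without control replicate 2, and with a pseudocount of 1 none was called. The ligand genes Bmp2, Bmp5, Bmp6 and Bmp7 did not reach the level to be tested. Of 9 tested TGF-beta and activin ligands 3 were called higher and 3 lower, against 2 and 4 with FPKM as deposited and 1 and 4 with equal sums. Gdf9, among those called higher, had a mean FPKM of 0.331 and overlapping groups (log2 fold change 1.22, adjusted P = 0.0456). Its call was lost under every other scaling and with a pseudocount of 1. It was also lost without control replicate 2, control replicate 3, Al replicate 2 or Al replicate 3. Inhba, the activin A subunit, went from 2.09 ± 0.245 to 5.18 ± 1.86 scaled FPKM (log2 fold change 1.21, adjusted P = 0.00379; not called with equal sums), and Inha, the inhibin alpha subunit that opposes activin, went from 2.53 ± 0.133 to 0.596 ± 0.157 (-1.95, adjusted P = 0.000126). Tgfb1 (-0.64, adjusted P = 0.0175) and Tgfb3 (-0.88, adjusted P = 0.00445) fell, the call of Tgfb1 being lost without Al replicate 1 or Al replicate 2. Tgfb2, at a mean FPKM below 1 and named after its values were seen, went from 0.0771 ± 0.0194 to 1.47 ± 0.115 (log2 fold change 3.15, adjusted P = 2.42e-05; SD, n = 3 each in this paragraph).

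Among 10 tested receptors and co-receptors, 2 were called higher, 1 lower and 7 not called, with a median of 0.00. With quantile normalization 1 was called higher and 2 lower, with FPKM as deposited 1 and 3, and with equal sums 0 and 7. Over all genes 14.0% were called higher and 42.0% lower as deposited, and 9.32% and 53.1% with equal sums. Bmpr2, the type II BMP receptor and partner of Bmpr1a, was read at 13.2, 11.5 and 11.2 scaled FPKM in the control libraries, against 4.54, 4.03 and 6.24 in the Al libraries. It was lower in all Al libraries, with a log2 fold change of -1.28 (SE 0.17, adjusted P = 0.000249). The BMP co-receptor Rgmb was called higher (0.60, adjusted P = 0.00260), though under no other scaling, nor with a pseudocount of 1 or without control replicate 3, and Tgfbr1, the type I partner of Tgfbr2, was at 4.93 ± 0.203 and 4.83 ± 0.576 (SD, n = 3 each; log2 fold change -0.04, adjusted P = 0.827; -0.82 and called with equal sums).

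Of the 6 SMADs that carry the signal, 4 fell and 0 rose, with a median log2 fold change of -0.75; under the other scalings 3 to 5 fell and 0 rose. The share of all tested genes called lower was 24.4% in the main analysis, 42.0% with FPKM as deposited and 53.1% with equal sums. With a pseudocount of 1 the log2 fold changes of Smad4 (-0.57) and Smad9 (-0.57) were under the threshold in size and 2 of the 6 were called lower. In the BMP branch Smad5 (log2 fold change -1.38, adjusted P = 9.83e-05) and Smad9 (-1.34, adjusted P = 0.00290) fell, and Smad1 did not pass the test at 18.9 ± 1.59 and 21.2 ± 1.0 scaled FPKM (0.17, adjusted P = 0.166). In the TGF-beta branch Smad3 fell (-0.89, adjusted P = 0.00660) and Smad2 stayed under the fold threshold (0.34, adjusted P = 0.0181). With FPKM as deposited the direction turned for Smad1 (-0.31) and Smad2 (-0.15). The common partner Smad4 fell from 12.6 ± 0.30 to 8.18 ± 0.594 (-0.62, adjusted P = 0.000913; SD, n = 3 each), and its call was also lost without Al replicate 1 and with quantile normalization.

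Of 10 other intracellular inhibitors 3 were called higher, 1 lower and 6 not called. Ski, the co-repressor related to Skil, rose from 44.3 ± 3.79 to 88.6 ± 8.41 scaled FPKM (log2 fold change 1.0, adjusted P = 0.000112), the pseudoreceptor gene Bambi was at 0.98 (adjusted P = 0.00348) and Tgif2 at 0.62 (adjusted P = 0.0187). Ppm1a, which codes for a SMAD phosphatase, fell (-0.78, adjusted P = 0.00117). Without size factors Ski, Bambi and Tgif2 lost their calls and 3 of the 10 were called lower; Tgif2 also lost its call without control replicate 1, control replicate 3 or Al replicate 3, Bambi and Tgif2 with a pseudocount of 1, and Ski with quantile normalization. Smurf1 and Smurf2, the ubiquitin ligases that SMAD7 brings to receptors, were not called, at -0.42 and 0.02 (adjusted P = 0.0207 and 0.884), though Smurf1 was with FPKM as deposited (-0.90) and both were with equal sums (-1.20 and -0.76).

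Outside the cell, 2 of 6 tested antagonists (Fst and Nbl1) were called higher and 1 lower. Fst had a mean FPKM of 0.386 and a log2 fold change of 0.80 (adjusted P = 0.0359). The call of Fst was lost without control replicate 1, control replicate 2 or Al replicate 1, and with a pseudocount of 1 or any other scaling. Bmper, which binds BMPs, fell (-0.88, adjusted P = 0.00644; not called with a pseudocount of 1), and Nbl1, another BMP-binding protein gene named after its values were seen, went from 0.137 ± 0.0488 to 1.77 ± 0.126 scaled FPKM (SD, n = 3 each; log2 fold change 3.0, adjusted P = 3.08e-05). Noggin (Nog) was not at a level to be tested. Of 8 genes for the binding and activation of latent TGF-beta, 4 were called higher and 1 lower: Ltbp1 (1.75, adjusted P = 2.98e-05), Ltbp3 (0.80, adjusted P = 0.00134) and Itgb5 (0.66, adjusted P = 0.0141) rose among the better expressed ones, and Ltbp4 (-1.03, adjusted P = 0.0334) fell with overlapping groups. Under every other scaling Ltbp3 and Itgb5 lost their calls, Itgb5 also without control replicate 3 or Al replicate 1, and Ltbp4 lost its call without control replicate 1, control replicate 2 or Al replicate 3 or with a pseudocount of 1.

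Of 12 tested TGF-beta target genes 8 were called higher and 1 lower, with a median log2 fold change of 1.27 against 0.03 for all genes. With FPKM as deposited 7 were called higher and 2 lower, and with equal sums 5 and 4; over all genes the shares called higher and lower were 26.2% and 24.4% in the main analysis, 14.0% and 42.0% as deposited and 9.32% and 53.1% with equal sums. Ctgf, a matricellular protein gene also known as Ccn2, rose by 1.72 on the log2 scale (adjusted P = 0.000722), the cell cycle inhibitor Cdkn1a by 1.61 (adjusted P = 0.000238) and the AP-1 subunit Junb by 1.52 (adjusted P = 1.50e-05). Fn1, Acta2 and Snai2 were not called, and Ldlrad4, itself an inhibitor of the pathway, fell (-0.74, adjusted P = 0.00564), a call lost with quantile normalization and with a pseudocount of 1. These genes answer to other inputs as well. Among 4 tested BMP targets other than the ID and SMAD genes 1 was called higher and 1 lower, namely Gata2 (0.67, adjusted P = 0.00703), which was not called without size factors or with a pseudocount of 1, and Atoh8 (-0.90, adjusted P = 0.0506), whose groups overlapped. Atoh8 kept its call without Al replicate 1 and lost it without any other single library. The median of these 4 was -0.23.

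**Figure D4:**
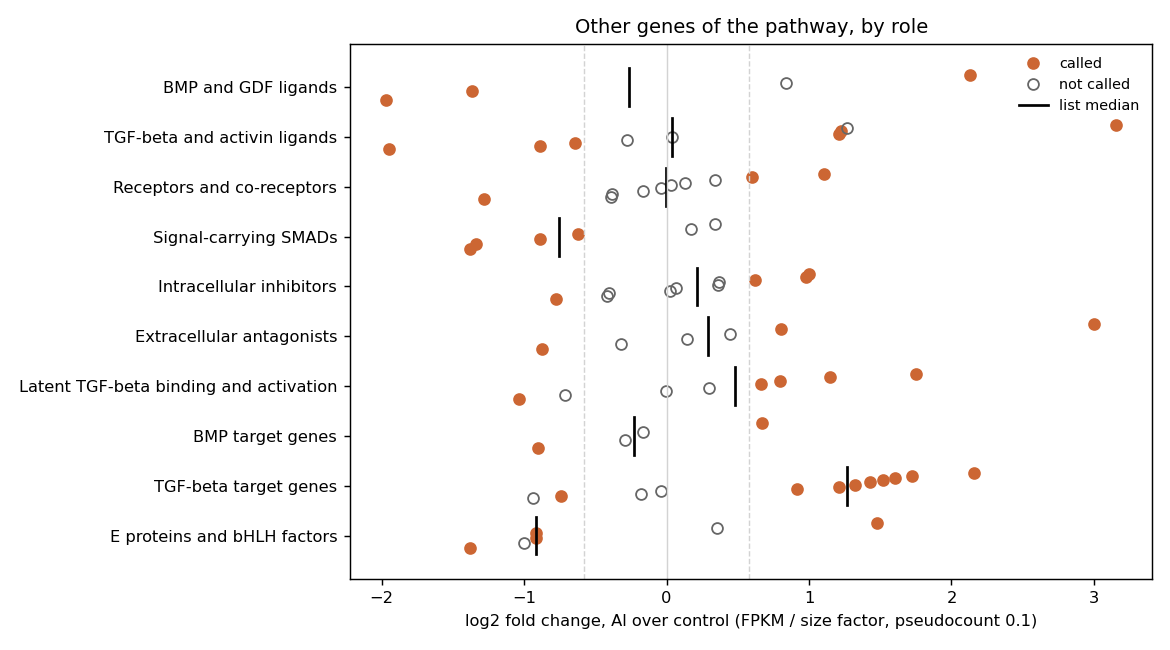
Log2 fold change, Al over control (horizontal axis), of the 75 other tested pathway genes, 1 row per role; filled points are called genes, open points are not called, black bars are list medians and dashed lines the fold threshold of 0.58. Signal-carrying SMADs lie mostly to the left (median -0.75) and TGF-beta target genes mostly to the right (median 1.27).

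The E proteins, which ID proteins bind, were measured alongside. Tcf3 was read at 44.5, 45.1 and 40.2 scaled FPKM in the control libraries, against 16.2, 17.4 and 16.0 in the Al libraries, a fall in every Al library (log2 fold change -1.38, SE 0.09, adjusted P = 1.32e-05). Tcf4 fell from 6.24 ± 0.504 to 3.26 ± 0.182 (-0.91, adjusted P = 0.000365), and Tcf12 was under the fold threshold at 27.0 ± 0.693 and 34.7 ± 2.28 (0.36, adjusted P = 0.00874; SD, n = 3 each) and at -0.13 with FPKM as deposited. Of 6 tested E proteins and basic helix-loop-helix factors 1 was called higher and 3 lower, with Hes6, a neural factor of the family, at -0.92 (adjusted P = 0.00561). The gene called higher was the neural factor Neurog2, named after its values were seen, at 0.0229 ± 0.0397 and 0.25 ± 0.133 scaled FPKM (SD, n = 3 each; log2 fold change 1.48, adjusted P = 0.0198), a call lost with a pseudocount of 1. The neural factors Neurod1, Neurod2 and Neurog1 were not at a level to be tested.

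The gene outside the 10 whose log2 values followed each ID gene most closely over the 6 libraries, among the 10340 genes that reached a mean FPKM of 1, was Ndufa10 for Id1 (Pearson r = 0.998), Man2a1 for Id2 (0.995), Dpysl3 for Id3 (0.995) and Naglu for Id4 (0.986). The libraries fall into the control and Al groups, which differ in depth, and 50.6% of all tested genes were called between them. A correlation over 0.95 was found for 791 genes with Id1, 122 with Id2, 106 with Id3 and 5 with Id4, so these likenesses are descriptions only. Of the 10 genes, Id2 and Id3 were the most alike pair among the ID genes (r = 0.953).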

How the data were processed

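The authors trimmed reads with Trimmomatic, filtered out ribosomal RNA with SortMeRNA and mapped to GRCm38/mm10 with HISAT2, per the methods; the submitters' processing notes list fastp, HISAT2, HTSeq and GRCm39 instead. The deposited values are FPKM per gene symbol and library, with 0 columns left unused.

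Whole reads were recovered from the FPKM steps for 17688 of 17688 genes above 0 (tolerance 0.0001). FPKM was divided by size factors (medians of ratios, using genes seen in every library whose FPKM averaged 1 or more), and log2(value + 0.1) was fitted with limma 3.58.1 (lmFit, eBayes with trend, R 4.3.3) over genes averaging an FPKM of 0.1 or more. A fold change on this scale understates changes of low genes. P values were adjusted by Benjamini-Hochberg over the 12889 tested genes; calls used the unadjusted P. Same-numbered libraries did not deviate together, so no replicate block was used.

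The 10 genes and the lists were chosen with earlier results of these data known. Named list genes were the called ones averaging an FPKM of 1 or more, at most 4 per list by fold change, plus all signal-carrying SMADs and Tcf3, Tcf4 and Tcf12. Col1a1 is also named, as a fibroblast marker. Outside this rule are Smurf1, Smurf2, Tgfbr1, Tgfb2, Nbl1, Neurog2, Gdf5, Gdf9, Fst, Ldlrad4 and the untested or uncalled genes given by name. They were named after their values were seen. A gene that this rule names is not reported here. Positions came from GENCODE M21, promoters from RefSeq, and copies from minimap2 2.31-r1302. Other software was Python 3.11.15, pandas 2.3.3, numpy 2.4.6 and scipy 1.17.1. Immunoprecipitated libraries were not analysed here.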

Additional observations from a re-analysis of the deposited data

How the results depend on the processing

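The scaling moved the counts most: over all genes 3375 were called higher and 3143 lower (51.8% of the called genes higher), against 1805 and 5417 with FPKM as deposited (25.0% higher) and 1201 and 6848 with equal sums (TPM, 14.9% higher), where the medians of all tested genes were -0.43 and -0.74. A threshold of 1 on the log2 fold change gave 2065 and 1816. Of the 9 genes tested among the 10, TPM left 1 called higher (Smad7) and 4 lower (Smad6, Skil, Bmpr1a and Tgfbr2). Of the 75 other pathway genes, 25 were called higher and 18 lower, against 15 and 29 as deposited, 10 and 40 with TPM, 15 and 11 with a pseudocount of 1, and 16 and 8 with the threshold of 1. Among the 9 genes and the called pathway genes, with TPM the sign turned for Id4 (-0.41), Bmpr1a (-0.76), Tgfbr2 (-0.59), Rgmb (-0.18), Tgif2 (-0.12), Itgb5 (-0.12) and Gata2 (-0.088), as deposited for Id4 (-0.11), Bmpr1a (-0.46) and Tgfbr2 (-0.29), and with quantile normalization for Skil (0.15), Tgfbr2 (-0.081) and Col1a1 (-0.46). With TPM, Id1 (0.50) and Id2 (0.76) lost their calls. The cause was not tested. Leaving out each library in turn gave log2 fold changes of 1.08 to 1.64 for Id1, 1.08 to 2.18 for Id2, 0.46 to 1.40 for Id3, -0.016 to 0.81 for Id4, -0.16 to 0.077 for Skil, -0.041 to 0.10 for Bmpr1a and 0.11 to 0.26 for Tgfbr2, and 2 to 4 of the 9 genes called higher.

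Same-numbered control and Al libraries had correlations of deviations of -0.0329, -0.0257 and -0.0733, and 0 of 6 libraries correlated best with its own number, so the numbers give no pairing. With a replicate block, 3352 genes were called higher and 3123 lower, as were 23 and 20 of the other pathway genes, and 4 of the 9 genes were called higher and 1 lower, Id3 being added (adjusted P = 0.0705). Fst and Col1a1 lost their calls with the block. Bmp4 and Id4 rested on at most 13 and 109 reads in a library.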
